A study of Mus musculus with 8 samples.

Results

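The genes encoding the proteins of the cytosolic ribosome were followed in the lungs of toxin-treated bone marrow chimeras. Members were the 84 genes, of 37072 gene names on the array, whose symbol follows the Rpl or Rps naming of ribosomal proteins or is Rplp0, Rplp1, Rplp2 or Rpsa. They were represented by 182 probes on 767 spots, and each gene was read from its brightest probe by mean level. By role the 84 comprised 31 small subunit proteins, 43 large subunit proteins, the 3 proteins of the ribosomal stalk and 7 paralogs, which encode near copies of a standard protein. All 84 symbols matched a RefSeq gene. Of these genes 80 were well above background on all 8 arrays, and 82 passed the filter on dim probes and were tested. Rpl10l and Rpl37 did not pass. Rpl3l and Rpl39l passed but were above background on 5 and 2 of the 8 arrays.

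The study used male chimeric mice at an age of 22 weeks, 8 in number, whose lungs were taken 72 hours after an injection of diphtheria toxin (DT). Each mouse carried transplanted bone marrow, and donor and recipient were each either wild type or LysM-DTR, a line whose DT receptor is driven by the lysozyme M promoter. In LL both the marrow and the recipient were LysM-DTR. In WL wild-type marrow was placed into LysM-DTR mice, in LW the reverse was done, and in WW both sides were wild type. There were 2 mice and 2 arrays per group. All mice, WW included, received the toxin, so WW is a control for the receptor and not for the toxin. Neutrophils, monocytes and macrophages express lysozyme M, as do type 2 cells of the alveolar epithelium, so the receptor is not restricted to a single cell type. How many cells of the host's own marrow each chimera kept is not given in the sources used here.

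Cytosolic ribosomes join a small subunit, which reads the mRNA, to a large subunit, which forms the peptide bond, and each protein is needed in about equal number. The mRNAs of ribosomal proteins are among the most abundant of a cell. Most begin with a C followed by a run of pyrimidines, the 5′ terminal oligopyrimidine (TOP) tract, through which the mTOR pathway and the protein Larp1 adjust their translation and stability together. Diphtheria toxin stops protein synthesis by modifying elongation factor 2 (Eef2), which the ribosomal stalk recruits.

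The sequence that most members share lies at the transcription start. Promoter entries (RefSeq, GRCm38.p6, 250 bases before to 50 after each annotated start) were found for 63 of the 84 members. A C followed by 7 or more letters that are each C or T, searched on the transcribed strand within 50 bases either side of the annotated start, was present in 52 of the 63, or 82.5%, against 32.0% of the 27025 genes with an entry. The letters CGGAAG, the core of sites bound by ETS factors, were present on either strand of the 300 bases in 42 of the 63, or 66.7%, against 18.8% of all genes. The first search did not need the run to lie at the start itself. Read on the other strand CGGAAG is CTTCCG, which can share letters with a run, and 42 members, with 18.4% of all genes, held a match that shared none. Stretches of 30 bases are shown for 4 members that had higher signals in both LL mice than in either WW mouse (Rps2, Rpl15, Rps27l and Rps6) and for 2 that had lower ones (Rps27 and Rps21), because both kinds carry the run. Capitals mark the longest run of the window, or the first where lengths were equal, 5′ to 3′ on the transcribed strand.
Rps2: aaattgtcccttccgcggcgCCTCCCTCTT
Rpl15: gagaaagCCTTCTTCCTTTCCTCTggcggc
Rps27l: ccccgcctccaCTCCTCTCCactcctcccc
Rps6: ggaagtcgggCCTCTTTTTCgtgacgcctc
Rps27: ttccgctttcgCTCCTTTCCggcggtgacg
Rps21: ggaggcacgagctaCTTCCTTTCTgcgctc
The stretches lie at chr17:24720083-24720112 on the plus strand for Rps2, chr14:18270968-18270997 on the minus strand for Rpl15 and chr9:66946053-66946082 on the plus strand for Rps27l. Those of Rps6, Rps27 and Rps21 lie at chr4:86857349-86857378 on the minus strand, chr3:90213632-90213661 on the minus strand and chr2:180257399-180257428 on the plus strand. With the annotated first base as position 0, the marked run begins at position -4 in Rpl15, -2 in Rps27, -1 in Rps6, -22 in Rps27l, 34 in Rps21 and 40 in Rps2. In Rps27l an unmarked run of equal length follows it. The windows of Rpl24, Rpl7l1 and Rplp0 did not hold a run by this definition.

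Each lung RNA was labelled with Cy3 and read on a one-colour Agilent array of 62976 spots, and levels are log2 processed intensities relative to the array's 75th percentile, which is set to 0. The 75th percentile ran from 209 to 324 intensity units over the 8 arrays, and from 66.3 to 72.3% of spots other than controls lay well above background. No spot was saturated. The 8 arrays shared 1 slide and 1 scan. Recipient genotype coincided with the slide's column and donor genotype with the place in it, so genotype and position on the slide cannot be told apart. Lyz2, the gene whose promoter drives the receptor, had levels of 4.67 and 4.94 in LL, 8.70 and 7.36 in WL, 8.99 and 8.84 in LW and 9.05 and 9.09 in WW. It was 4.27 lower in LL than in WW on the log2 scale (SE 0.41, limma adjusted p = 0.0121), and WL mouse 2 lay below WL mouse 1. The receptor transgene itself was not analysed here.

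As a whole the family had small differences between groups. The median over the 80 members above background on all arrays, each taken relative to its own WW mean, was 0.08 and 0.24 in LL, -0.02 and 0.42 in WL, -0.04 and 0.03 in LW and -0.05 and 0.05 in WW on the log2 scale. WL mouse 2 stood highest: it gave the highest of the 8 values for 67 of the 80 members. WL mouse 1 lay within the range of the LW and WW arrays for 62 of the 80. In LL the second mouse was higher than the first for 80 of 80 members (median difference 0.16), and in WL for 79 of 80 (0.45). It was so for 72 of 80 in LW (0.08) and 71 of 80 in WW (0.10). Over all 25830 genes tested the second mouse was higher for 12306 in LL, 12211 in WL, 11606 in LW and 13582 in WW. Among the 995 other genes with a mean level above 5, it was higher for 688, 608, 568 and 631. Within each group most ribosomal protein genes thus lay higher in the second mouse, and the WL mice were the farthest apart. The second mouse of each group was at place 2 or 4 of its slide column and the first at place 1 or 3. Mouse number and place on the slide cannot be told apart.

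**Figure D1:**
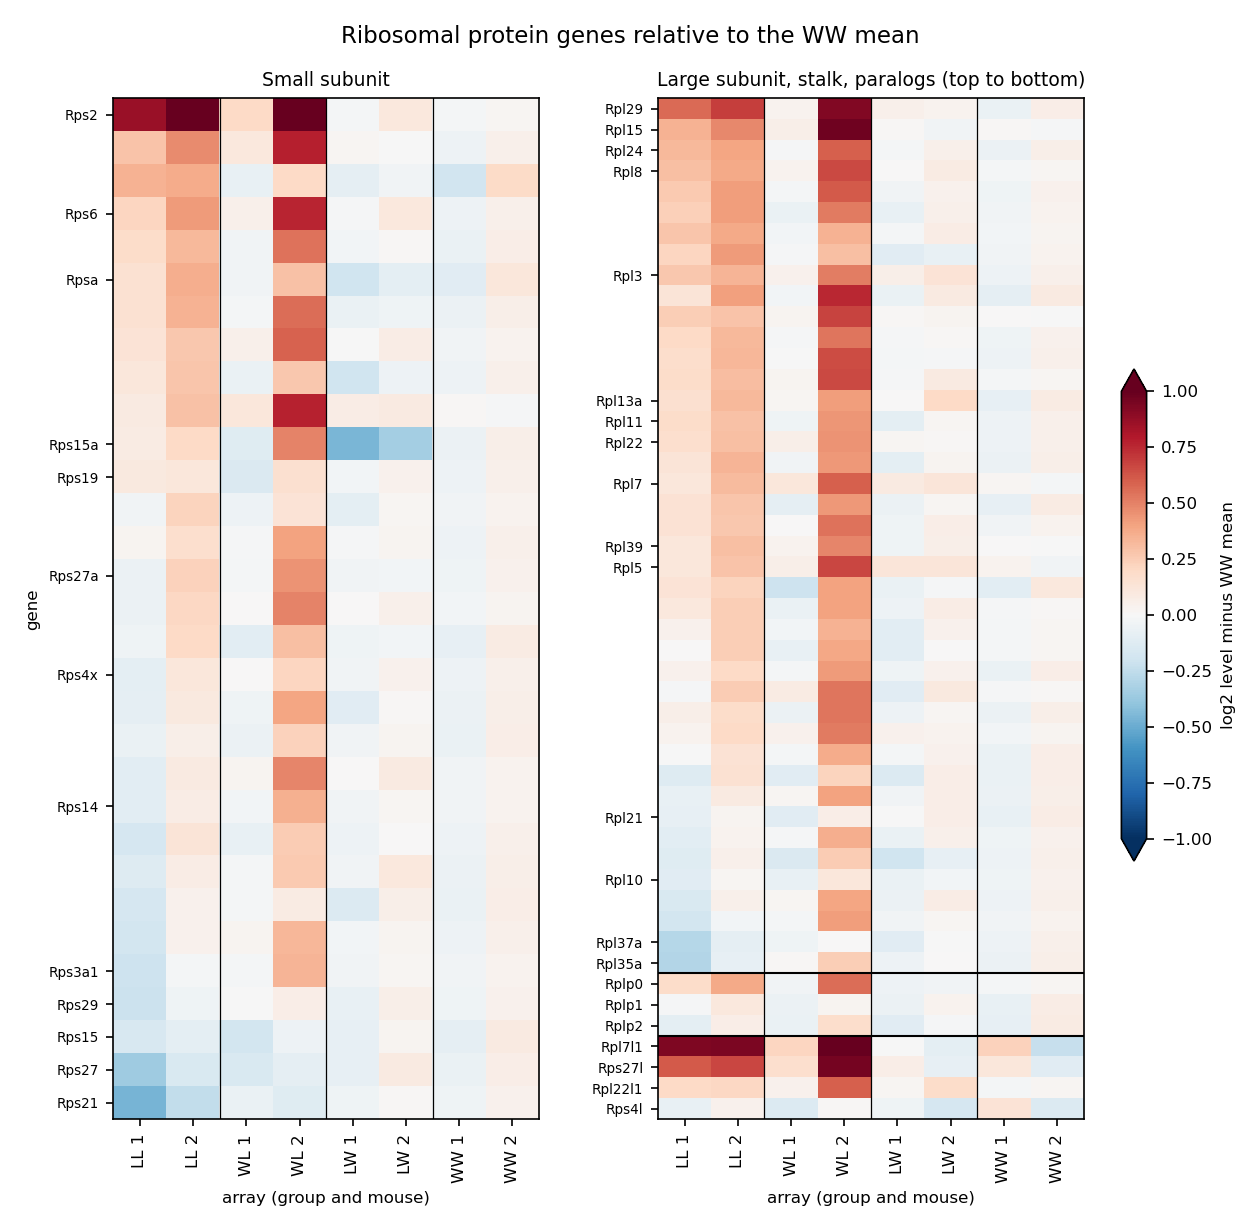
Log2 level minus the WW mean (colour, limited to -1 to 1) of the 80 members above background on all arrays (rows, with names at most of those described in the text) in each of the 8 arrays (columns, group and mouse), with the small subunit at left and the large subunit, stalk and paralogs at right. Rps2, Rpl29, Rpl15, Rpl7l1 and Rps27l have the highest values in both LL mice and in WL mouse 2. Rps21 (-0.47) and Rps27 (-0.36) are the lowest in LL mouse 1. WL mouse 1 and both LW mice are near 0 for most rows.

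The sign of the family median in LL depended on the scaling. With the arrays quantile normalised the medians were -0.06 and 0.00 in LL, 0.01 and 0.25 in WL, 0.01 and 0.06 in LW and -0.01 and 0.01 in WW. Centred on the array median they were 0.19 and 0.40 in LL, 0.05 and 0.64 in WL, -0.01 and 0.04 in LW and -0.03 and 0.03 in WW. With a normexp background correction they were 0.11 and 0.26 in LL, 0.03 and 0.49 in WL, -0.01 and 0.06 in LW and -0.02 and 0.02 in WW, and with the percentile taken over probes above background on all arrays 0.04 and 0.19 in LL, 0.00 and 0.33 in WL, -0.04 and 0.06 in LW and -0.04 and 0.04 in WW. WL mouse 2 was the highest array under each of these 5 scalings, whereas LL mouse 1 lay below 0 under quantile normalisation. The median over all genes tested was 0.04 and 0.02 in LL and -0.08 in WL mouse 2 at the main scaling, and 0.15, 0.18 and 0.14 when arrays were centred on their median.

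**Figure D2:**
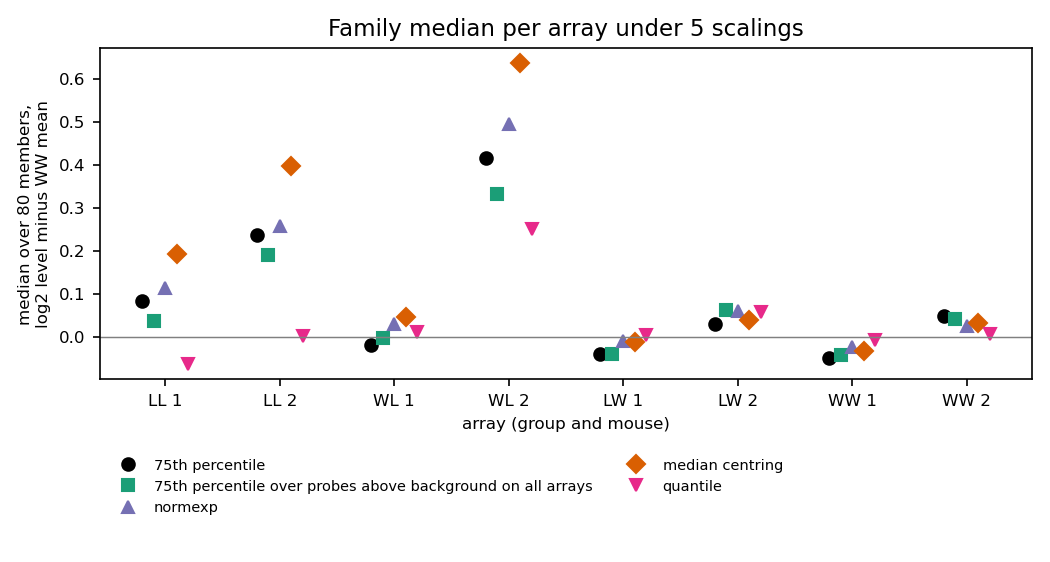
Median over the 80 members of the log2 level minus the WW mean (y axis) in each array (x axis) under 5 scalings (symbols). WL mouse 2 lies at the top under every scaling, and LL mouse 1 crosses 0 between median centring (0.19) and quantile normalisation (-0.06).

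LL was compared with WW to ask what differed when both the marrow and the recipient carried the receptor. Rps2, Rpl7l1, Rps27l and Rpl29 had the largest differences above 0, between 0.63 and 0.97 on the log2 scale, and Rpl3l, Rps21 and Rps27 the largest below 0 among members above background in both groups. None of them passed the test: limma called 0 of 82 members, against 3.13% of all genes (808 of 25830), and the smallest adjusted p of a member was 0.195. At an unadjusted p under 0.05 there were 2 members, Rps2 and Rps21, against 24.8% of all genes (6403). The median difference was 0.13 with 58 of 82 above 0, beside 0.03 over all genes. Over the 995 other genes with a mean level above 5 it was 0.14, with 664 above 0, so the family's median was no higher than that of other bright genes. Both LL mice lay above both WW mice for 43 of the 82 members (37.0% of all genes did) and below for 7 (32.4% of all genes). In bulk lung RNA, fewer cells of a type and less RNA per cell cannot be told apart.

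The precision of these comparisons was set by the WL mice, since a gene's spread was estimated from all 4 groups. The 95% interval of a member's LL minus WW difference had a median half-width of 0.46. It lay wholly within a 2-fold change for 75 of the 82 members and reached that size for Rps2, Rpl29, Rpl15, Rpl7l1, Rps27l, Rpl3l and Rpl39l. Without both WL arrays, limma called 7 members higher in LL than in WW and 0 lower, against 17.3% of all genes called higher. The 7 were Rps2 (adjusted p = 0.00515), Rpl29 (0.0110), Rpl7l1 (0.0150), Rps27l (0.0165), Rpl15 (0.0283), Rpl24 (0.0432) and Rpl8 (0.0442). The share of members called was thus below that of all genes. Leaving out either WL mouse alone also gave 7. The calls in LL therefore rest on whether the WL mice enter the estimate of the spread.

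In the small subunit, 19 of 31 genes had LL minus WW differences above 0, with a median of 0.08, and 0 passed the test. Rps2, a core protein near the path by which mRNA enters the ribosome, had levels of 5.39 and 5.58 in LL, 4.72 and 6.0 in WL, 4.50 and 4.62 in LW and 4.50 and 4.54 in WW. Both LL mice and WL mouse 2 stood apart from the other 5 mice, and the LL minus WW difference was 0.97 (SE 0.39, adjusted p = 0.197), or 1.95-fold, with a 95% interval of 0.02 to 1.92. Its brightest probe is annotated at chr17:42864841-42864900 (mm9), while its 10-spot probe at chr17:24857583-24857642, a different place on the same chromosome, gave a difference of 1.08. Rps6, the protein phosphorylated by the S6 kinases downstream of mTOR, had levels of 6.22 and 6.44 in LL, 6.07 and 6.77 in WL, 6.0 and 6.12 in LW and 5.96 and 6.06 in WW, with both LL mice above both WW mice and a difference of 0.32 (SE 0.25, adjusted p = 0.433). Rpsa, which is also known as a laminin receptor precursor, had 7.20 and 7.41 in LL, 7.02 and 7.35 in WL, 6.86 and 6.95 in LW and 6.94 and 7.16 in WW, and LL and WW did not overlap (difference 0.25).

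Other small subunit genes were lower in LL. Rps21 had levels of 5.88 and 6.10 in LL, 6.28 and 6.22 in WL, 6.30 and 6.36 in LW and 6.30 and 6.39 in WW, so that both LL mice lay below all 6 other mice. Its LL minus WW difference was -0.36 (SE 0.14, adjusted p = 0.195). Rps27, a zinc finger protein of the small subunit, had 7.11 and 7.32 in LL, 7.32 and 7.38 in WL, 7.39 and 7.56 in LW and 7.40 and 7.54 in WW, a difference of -0.25 (SE 0.15, adjusted p = 0.326) with LL below WW and no overlap. Both of its probes are annotated on chromosome 9 (mm9) although the gene lies on chromosome 3. The brightest probe of Rps29 is annotated on chromosome 2 although that gene lies on chromosome 12. Processed copies of ribosomal protein genes are common in the mouse genome, so which transcripts these probes measured is uncertain. Rps29 (-0.13) and Rps15 (-0.13) also had both LL mice below both WW mice.

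Several small subunit genes known from human disease or with further roles had LL minus WW differences close to 0. Rps19, which is often mutated in Diamond-Blackfan anaemia, had 7.57 and 7.59 in LL, 7.33 and 7.63 in WL, 7.45 and 7.51 in LW and 7.42 and 7.52 in WW, and its LL minus WW difference was 0.11 with an interval of -0.27 to 0.48. Rps14 had 6.95 and 7.12 in LL, 7.02 and 7.40 in WL, 7.02 and 7.07 in LW and 7.01 and 7.09 in WW, and the LL and WW mice overlapped. Rps27a, which is made as a fusion with ubiquitin, had 7.13 and 7.42 in LL, 7.18 and 7.64 in WL, 7.16 and 7.17 in LW and 7.15 and 7.24 in WW. Rps4x, the X-linked form of that protein, had 5.86 and 6.08 in LL, 5.97 and 6.18 in WL, 5.93 and 6.0 in LW and 5.92 and 6.01 in WW, and Rps3a1 had 6.77 and 6.95 in LL, 6.96 and 7.31 in WL, 6.94 and 6.99 in LW and 6.94 and 7.01 in WW. In Rps27a, Rps4x, Rps3a1 and Rps14 the highest value belonged to WL mouse 2.

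**Figure D3:**
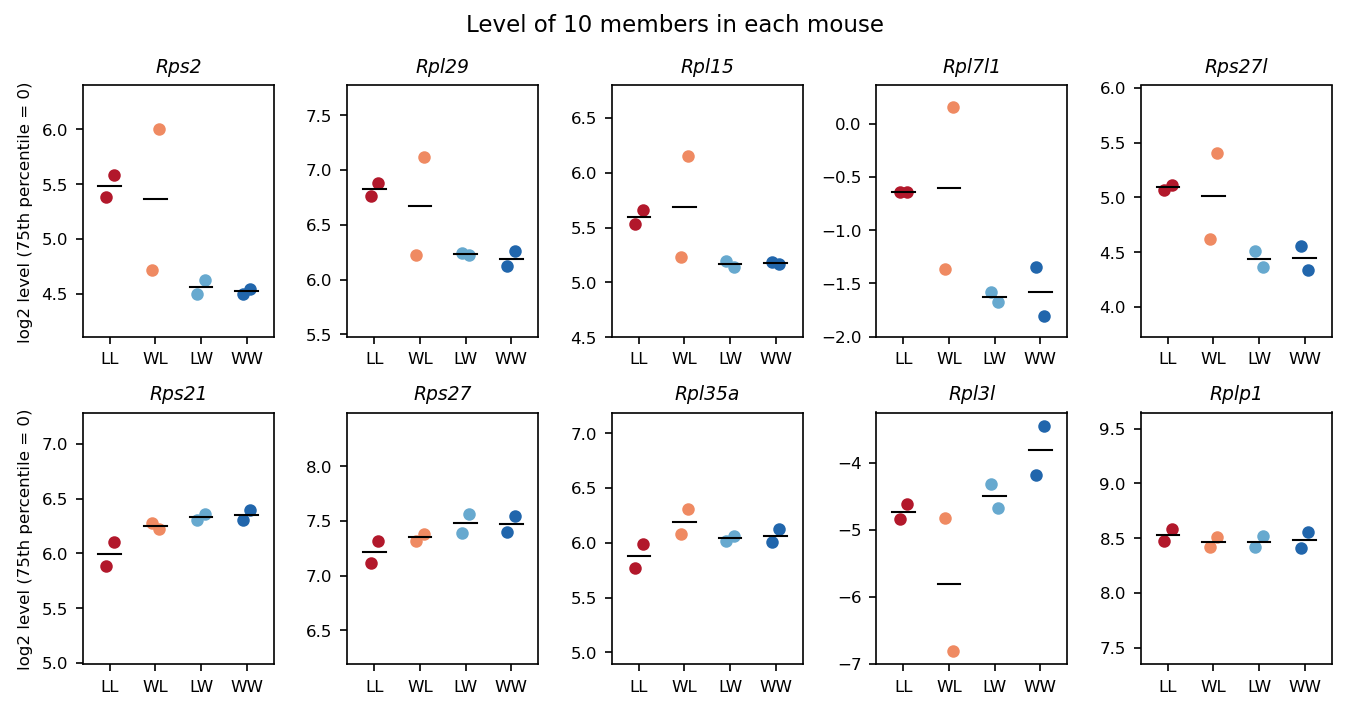
Log2 level (y axis, 0 is the array's 75th percentile) of 10 members in each mouse (points) with the group mean (lines) in LL, WL, LW and WW. Rps2, Rpl29, Rpl15, Rpl7l1 and Rps27l are higher in both LL mice and in WL mouse 2, Rps21 is lower in both LL mice, and Rplp1 lies between 8.41 and 8.59 in all 8. The y axes are centred on each gene.

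In the large subunit, 34 of 42 genes had LL minus WW differences above 0, with a median of 0.21, and 0 passed the test. Rpl29, a large subunit protein that also binds heparin and heparan sulfate, had levels of 6.76 and 6.88 in LL, 6.23 and 7.12 in WL, 6.24 and 6.23 in LW and 6.12 and 6.26 in WW. The LL mice lay above all mice of LW and WW, and the difference from WW was 0.63 (SE 0.29, adjusted p = 0.228), or 1.55-fold. Rpl15, a core protein of the large subunit, had 5.53 and 5.66 in LL, 5.23 and 6.15 in WL, 5.19 and 5.14 in LW and 5.19 and 5.17 in WW, with the 4 LW and WW mice in a narrow band. Its difference was 0.42 (SE 0.29, adjusted p = 0.392). Rpl24 had 6.06 and 6.13 in LL, 5.72 and 6.33 in WL, 5.71 and 5.78 in LW and 5.68 and 5.79 in WW and a difference of 0.36 (SE 0.22, adjusted p = 0.330), and Rpl8 had 6.49 and 6.57 in LL, 6.22 and 6.85 in WL, 6.19 and 6.27 in LW and 6.17 and 6.20 in WW and a difference of 0.34 (SE 0.22, adjusted p = 0.356). In all 4 genes WL mouse 2 was the highest of the 8 mice and WL mouse 1 lay close to LW and WW.

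Rpl5 and Rpl11, which together with a small ribosomal RNA can bind Mdm2 and so stabilise p53, were read side by side. Rpl5 had 5.22 and 5.40 in LL, 5.17 and 5.77 in WL, 5.23 and 5.23 in LW and 5.15 and 5.07 in WW, with a difference of 0.20 (SE 0.22, adjusted p = 0.576). Rpl11 had 7.36 and 7.47 in LL, 7.13 and 7.62 in WL, 7.08 and 7.19 in LW and 7.13 and 7.23 in WW, with a difference of 0.24 (SE 0.19, adjusted p = 0.452). Both genes had higher levels in both LL mice than in either WW mouse. Rpl13a had 6.93 and 7.09 in LL, 6.78 and 7.18 in WL, 6.77 and 6.97 in LW and 6.68 and 6.85 in WW and a difference of 0.24. Rpl10 (7.56 and 7.69 in LL, 7.60 and 7.78 in WL, 7.61 and 7.64 in LW and 7.63 and 7.72 in WW) and Rpl21 (7.24 and 7.35 in LL, 7.21 and 7.39 in WL, 7.32 and 7.39 in LW and 7.25 and 7.40 in WW) had among the 3 smallest spreads of the family, with SDs over the 8 arrays of 0.07 and 0.08. At the lower end, Rpl35a had 5.77 and 5.99 in LL, 6.08 and 6.31 in WL, 6.01 and 6.07 in LW and 6.01 and 6.12 in WW, with both LL mice below both WW mice (difference -0.19), and Rpl37a had a difference of -0.19 with no overlap.

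The stalk is the lateral arm of the large subunit on which elongation factor 2 acts. Rplp0, its base, had 7.03 and 7.22 in LL, 6.81 and 7.40 in WL, 6.79 and 6.81 in LW and 6.82 and 6.86 in WW, and its LL minus WW difference was 0.28 (SE 0.22, adjusted p = 0.427), with both LL mice above all LW and WW mice. Rplp1 had 8.47 and 8.59 in LL, 8.42 and 8.51 in WL, 8.42 and 8.52 in LW and 8.41 and 8.55 in WW and Rplp2 had 7.46 and 7.62 in LL, 7.49 and 7.73 in WL, 7.44 and 7.55 in LW and 7.47 and 7.64 in WW. Their differences were 0.05 and -0.01, with overlapping groups, and the SD of Rplp1 over the 8 arrays (0.07) was the smallest of the 80 members. Eef2, the target of the toxin, had 6.58 and 6.73 in LL, 6.44 and 6.80 in WL, 6.53 and 6.57 in LW and 6.49 and 6.54 in WW, a difference of 0.14 (SE 0.17, adjusted p = 0.600). Eef1a1, the factor that brings in aminoacyl-tRNA, had 6.77 and 6.95 in LL, 6.78 and 7.09 in WL, 6.83 and 6.87 in LW and 6.79 and 6.84 in WW.

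Among the paralogs, Rpl7l1 and Rps27l had differences unlike those of their partners. Rpl7l1, a relative of Rpl7 that acts in assembly of the large subunit, had -0.64 and -0.64 in LL, -1.37 and 0.16 in WL, -1.58 and -1.67 in LW and -1.35 and -1.81 in WW, and its LL minus WW difference was 0.94 (SE 0.47, adjusted p = 0.261). Rpl7 had 5.82 and 6.02 in LL, 5.81 and 6.30 in WL, 5.79 and 5.83 in LW and 5.72 and 5.69 in WW. Taken as Rpl7l1 minus Rpl7 in each mouse and relative to the WW mean, the values were 0.82 and 0.63 in LL, 0.10 and 1.14 in WL, -0.09 and -0.22 in LW and 0.21 and -0.21 in WW. Rps27l, a relative of Rps27 that is a known p53 target, had 5.06 and 5.12 in LL, 4.62 and 5.41 in WL, 4.51 and 4.36 in LW and 4.56 and 4.34 in WW, and its difference was 0.64 (SE 0.27, adjusted p = 0.205). As Rps27l minus Rps27 the values were 0.97 and 0.82 in LL, 0.32 and 1.05 in WL, 0.15 and -0.18 in LW and 0.18 and -0.18 in WW. In both pairs LL and WL mouse 2 lay above the range of LW and WW, so that paralog and partner had unequal differences within those arrays. For Rps27l minus Rps27, WL mouse 1 (0.32) lay above that range as well. The Rps27 probe is annotated on another chromosome than the gene, so what this partner's values measured is uncertain. These contrasts of a pair were given as a description.

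Rpl22l1 had 4.68 and 4.69 in LL, 4.52 and 5.08 in WL, 4.50 and 4.67 in LW and 4.46 and 4.50 in WW and its partner Rpl22 had 5.31 and 5.44 in LL, 5.20 and 5.59 in WL, 5.16 and 5.16 in LW and 5.09 and 5.19 in WW. Rpl22l1 minus Rpl22 stayed between -0.10 and 0.17 in the 8 mice relative to the WW mean. Rps4l had 2.68 and 2.80 in LL, 2.62 and 2.77 in WL, 2.72 and 2.59 in LW and 2.89 and 2.62 in WW, and Rps4l minus Rps4x stayed between -0.21 and 0.18. Rpl39, a small large-subunit protein, had 7.08 and 7.27 in LL, 7.0 and 7.46 in WL, 6.93 and 7.02 in LW and 6.97 and 6.96 in WW, and Rpl3 had 6.62 and 6.69 in LL, 6.40 and 6.86 in WL, 6.41 and 6.49 in LW and 6.30 and 6.40 in WW. Both had the LL mice above both WW mice, with differences of 0.21 and 0.31.

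**Figure D4:**
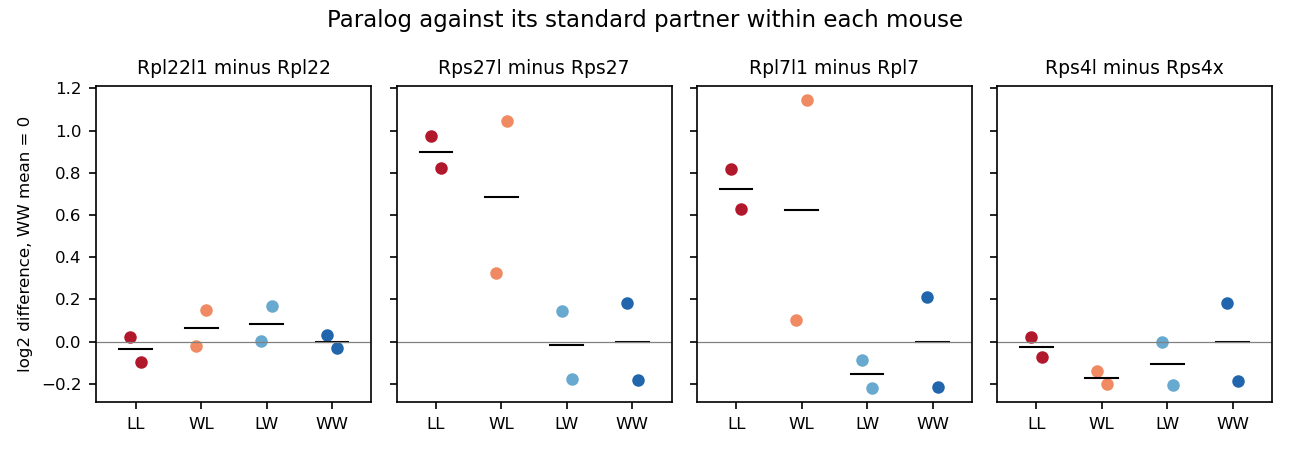
Log2 difference between a paralog and its standard partner in each mouse (points, lines are group means), relative to the WW mean, for 4 pairs above background on all arrays. Rps27l minus Rps27 reaches 0.97 and 0.82 in LL and Rpl7l1 minus Rpl7 reaches 0.82 and 0.63, while Rpl22l1 minus Rpl22 and Rps4l minus Rps4x stay near 0 in all mice. The Rps27 probe is annotated on another chromosome than the gene. Rpl7l1 and Rps27l had dimmer signals than their partners, and the part of signal level was not tested.

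The tissue-restricted paralogs were at or near background. Rpl3l, the form of Rpl3 in heart and skeletal muscle, had -4.84 and -4.62 in LL, -4.82 and -6.81 in WL, -4.31 and -4.68 in LW and -4.18 and -3.45 in WW and was above background in both LL and both WW mice, 1 WL mouse and 0 LW mice. WW was at least 1.55-fold above LW by the background bound. The cardiac muscle list, which includes Myh6 and Actc1, passed the filter for 12 of 12 genes. Its summed level relative to the 75th percentile was 171 to 215 in LL, 128 to 158 in WL, 167 to 216 in LW and 252 to 277 in WW. Myh6, the atrial myosin heavy chain, had 6.28 and 6.06 in LL, 5.65 and 5.07 in WL, 5.96 and 6.26 in LW and 6.43 and 6.58 in WW. WW was thus highest both for Rpl3l and for the cardiac list, and the part of heart tissue in the Rpl3l values was not tested. For the skeletal muscle list 6 genes passed, Myh1 and Myh2 were not above background on any array, and the sum lay between 3.25 and 5.32 in all mice.

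Rpl39l, the testis form of Rpl39, was above background in the 2 WL mice alone, with levels of -5.55 and -7.34 in LL, -4.92 and -4.04 in WL, -6.85 and -6.29 in LW and -6.85 and -5.22 in WW. By the background bound WL was at least 1.59-fold above LL, 1.31-fold above WW and 1.07-fold above LW. Rpl39l passed the filter through WL alone, so these bounds describe the values and are no support for a difference. Fitted differences of this gene are no measure of size, and limma did not call it in any comparison. Of the germ cell list 3 genes passed the filter, and Ddx4 and Dazl were not above background on any array. Rpl10l, the testis form of Rpl10, was not above background on any of the 8 arrays. Rpl37 had a single probe, which was above background on 3 arrays. Fau, Gnb2l1 and Rpl36al encode ribosomal or ribosome-bound proteins under other names. Fau had 7.59 and 7.70 in LL, 7.80 and 7.83 in WL, 7.85 and 8.02 in LW and 7.82 and 8.03 in WW, a difference of -0.28 (SE 0.15, adjusted p = 0.285), and 0 of these 3 genes were called.

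WL was compared with WW, and with LW, to ask what differed with the receptor in the recipient alone. In WL mouse 2 most members were higher than in WW, and in WL mouse 1 they were not. limma called 0 of 82 members in WL against WW, with 0.00387% of all genes called, and 0 in WL against LW, with 0.0465% called. At an unadjusted p under 0.05 there were 1 member (Rpl3l) and 2 members (Rpl39l and Rps15a), against 8.16 and 8.27% of all genes. Rpl39l passed the filter through WL alone, so its p in comparisons with WL carries no weight. Rpl3l was above background in 1 of the 2 WL mice. The median differences were 0.20, with 74 of 82 above 0, and 0.21, with 76 of 82 above 0, beside -0.05 and -0.02 over all genes and 0.09 and 0.10 over the other genes with a mean level above 5. Both WL mice lay above both WW mice for 18 members (17.5% of all genes) and below for 3 (24.5%). Against LW they lay above for 16 (20.7%) and below for 3 (24.0%).

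The WL differences were carried by 1 mouse. Without WL mouse 1, limma called 34 of 82 members in WL against WW, 33 of them higher, against 37.7% of all genes, and 34 against LW, where 37.4% of all genes were called. Without WL mouse 2 it called 0 in both. The median difference from WW was 0.42 with WL mouse 2 alone and -0.02 with WL mouse 1 alone. Rpl3l was lower than in WW with WL mouse 2 alone (-2.99). It was above background in 1 of the 2 WL mice, so that value is no measure of size. The largest WL minus WW differences among members above background on all arrays were 0.98 (SE 0.47, adjusted p = 0.486) for Rpl7l1 and 0.84 (SE 0.39, adjusted p = 0.486) for Rps2. In WL mouse 1 these genes were 0.21 and 0.20 above the WW mean, and in WL mouse 2 1.74 and 1.48. The lowest differences were those of Rps27 (-0.12) and Rps15 (-0.12), both of which turned to 0.02 and 0.03 when arrays were centred on their median.

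LW was compared with WW for the receptor in the marrow alone, and the members hardly differed. limma called 0 of 82, with 0.0542% of all genes called and 0 members at an unadjusted p under 0.05. The median was -0.01 with 35 of 82 above 0, and the interval lay wholly within a 2-fold change for 79 of 82. Both LW mice lay above both WW mice for 6 members (13.7% of all genes) and below for 5 (20.2%). The highest differences were Rpl5 (0.12), Rpl7 (0.11) and Rpl22l1 (0.10). Rps15a was the lowest gene above background, at -0.40 (SE 0.22, adjusted p = 1), with levels of 6.03 and 6.16 in LL, 5.83 and 6.45 in WL, 5.50 and 5.61 in LW and 5.90 and 6.01 in WW. That value belongs to its brightest probe, which has 1 spot. Its 2 probes with 10 spots each gave -0.01 and 0.02, with a mean of 0.0042, so these were close to each other and not to the brightest. Its remaining probe was above background on 3 arrays.

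LL was compared with WL for the marrow genotype in receptor-carrying recipients, and with LW for the recipient genotype under receptor-carrying marrow. limma called 0 of 82 members in each, against 1.73% of all genes for LL against WL and 2.80% for LL against LW. There were 1 member (Rpl39l) and 2 members (Rpl41 and Rps27l) at an unadjusted p under 0.05, against 14.5 and 25.7% of all genes. The p of Rpl39l carries no weight here either, since that gene passed the filter through WL alone. The median difference from WL was -0.07 with 25 of 82 above 0, and the LL mice lay above both WL mice for 1 member (23.5% of all genes) and below for 7 (14.3%). The lowest differences of genes above background on all arrays were those of Rpl35a (-0.31 (SE 0.16, adjusted p = 0.441)) and Rpl23a (-0.30). Without WL mouse 1 limma called Rpl15 lower and Rpl3l higher in LL than in WL, and without WL mouse 2 it called Rps2 and Rpl29 higher. In these fits 9.56% and 19.7% of all genes were called. Against LW the median was 0.13 with 62 of 82 above 0, and it turned to -0.04 under quantile normalisation. Both LL mice lay above both LW mice for 39 members (40.3% of all genes) and below for 4 (31.6%): Rps21, Rps27, Rps15 and Rpl35a.

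In LL against LW the largest differences were again those of Rpl7l1 (0.99 (SE 0.47, adjusted p = 0.237)), Rps2 (0.92 (SE 0.39, adjusted p = 0.202)) and Rps27l (0.65 (SE 0.27, adjusted p = 0.194)), and the lowest of a gene above background on all arrays was Rps21 (-0.34 (SE 0.14, adjusted p = 0.202)). Without the WL arrays limma called 8 members higher in LL than in LW and 0 lower, against 18.5% of all genes called higher. Leaving out either WL mouse alone was again the same fit. The 8 were Rps2, Rpl7l1, Rpl29, Rps27l, Rps15a, Rpl15, Rpl41 and Rpl24. For Rps15a the call belongs to its 1-spot probe (0.54), and its probes with 10 spots gave -0.04 and -0.03. These comparisons share the LL arrays with LL against WW. The interaction, (LL minus WL) minus (LW minus WW), was called for 0 of 82 members, with 0.0619% of all genes called and 0 members at an unadjusted p under 0.05. Rps15a (0.35, by the same 1-spot probe) was among its highest values above background on all arrays. The lowest interaction values were those of Rps7 (-0.33) and Rps23 (-0.31).

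The same members differed in pairs of arrays that had no array in common. Across the 80 members, LL minus LW and WL mouse 2 minus WL mouse 1 had a Pearson r of 0.81 and a Spearman rho of 0.70. Without Rps2, Rpl7l1, Rps27l, Rpl29 and Rpl15 the r over 75 members was 0.65. Both differences also ran with the mean level of the gene, at r = -0.41 and -0.57, so that members with dimmer probes had larger differences in each. These correlations are across genes of the same few libraries, which are not independent replicates, and are given as a description.

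Read from their brightest probes, most members had small spreads over the mice. The SD over the 8 arrays had a median of 0.18 for the 80 members and ranged from 0.07 (Rplp1) to 0.68 (Rpl7l1). It was under 0.2 for 53 members (66.3%), against 28.9% of all genes tested and 46.7% of the 995 other genes with a mean level above 5. The next largest SDs were those of Rps2 (0.59) and Rps27l (0.40). For the 65 member probes printed in 10 spots the median SD between spots of an array was 0.04, and the SD of their mean 0.01. For the 27 members whose brightest probe is such a probe, the SD between the mice of a group had medians of 0.34 in WL, 0.10 in LL, 0.07 in WW and 0.05 in LW.

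Different probes of a gene gave differences of unequal size. For 58 members 2 or more probes were above background on all arrays. The dimmest probe gave a higher LL minus WW difference than the brightest for 40 of the 58, with medians of 0.22 and 0.13, and a higher WL mouse 2 value for 51 of 58, with medians of 0.67 and 0.40. Rps2, Rps27l, Rpl29 and Rpl15 were as high by their second probe: 1.08, 0.91, 0.77 and 0.48 in LL against WW. The second probe of Rps27, also with 10 spots, gave -0.21. It is annotated on chromosome 9 beside the first, so it does not show that the gene itself was lower. For 11 members the probes differed in sign. Rps9 had the widest range, since its brightest probe gave -0.07 and another probe 1.64. Rpl9 (-0.03 and 0.40), Rps19 and Rps4x (0.01 and -0.20) were among the others. Which transcripts the dimmer probes bind was not tested.

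**Figure D5:**
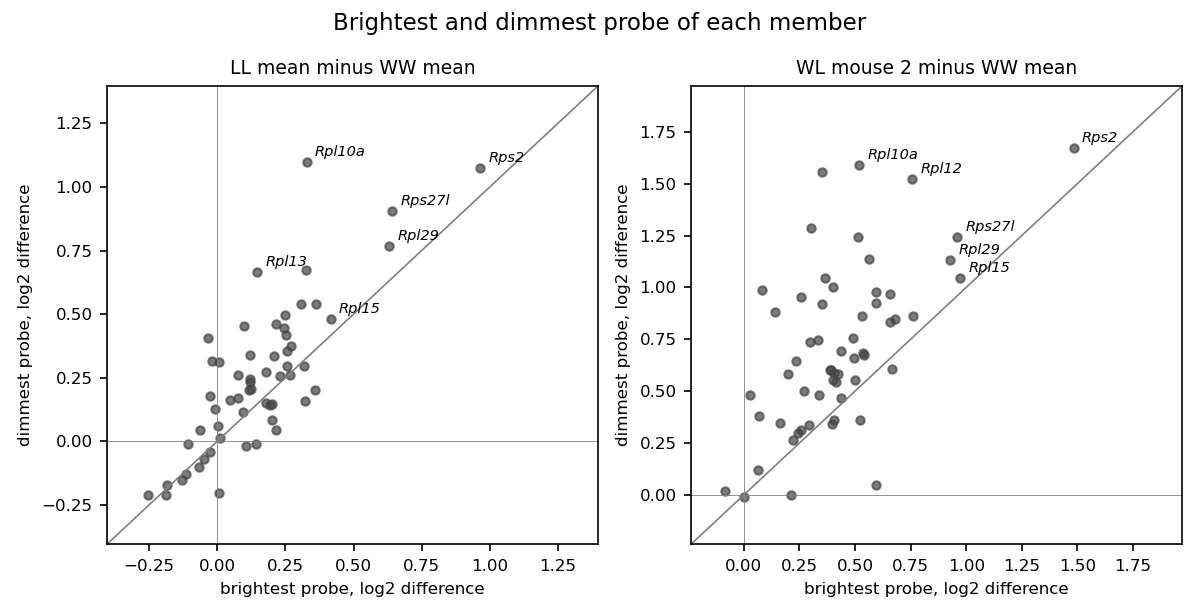
Log2 difference by the dimmest probe (y axis) against the brightest probe (x axis) of each of the 58 members with at least 2 probes above background on all arrays, for LL minus WW (left) and WL mouse 2 minus the WW mean (right), with the line of equality. Rps2, Rps27l, Rpl29 and Rpl15 are high by both probes, and 40 (left) and 51 (right) of the 58 points lie above the line.

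Genes that build ribosomes had a higher median difference in LL than the ribosomal protein genes. Their signals were dimmer, with a summed level over 59 genes of 372 and 361 in WW. Among members the dimmer probes gave larger differences, so the sets are not matched. The part of signal level in this contrast was not tested. Of 59 genes of ribosome assembly and rRNA synthesis, 54 were above 0 in LL against WW with a median of 0.66, and 0 passed the test. Their medians relative to WW were 0.58 and 0.74 in LL, 0.01 and 1.47 in WL, -0.03 and -0.04 in LW and 0.02 and -0.02 in WW, and under quantile normalisation those of LL were 0.53 and 0.69. Eif6, which keeps the new large subunit from joining too early, had 3.90 and 4.18 in LL, 2.59 and 4.35 in WL, 2.60 and 2.61 in LW and 2.64 and 2.60 in WW, a difference of 1.42 (SE 0.52, adjusted p = 0.173). Rrn3, which recruits RNA polymerase I, had 2.05 and 2.13 in LL, 1.36 and 2.36 in WL, 1.41 and 1.37 in LW and 1.44 and 1.29 in WW, a difference of 0.73 (SE 0.31, adjusted p = 0.214). Without the WL arrays 44 of the 59 were called higher and 0 lower, against 17.3% of all genes called higher, beside the 7 of 82 ribosomal protein genes.

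The mitochondrial ribosomal proteins and the other TOP mRNAs lay between. These lists were not matched to the family for signal level either. Of 77 mitochondrial ribosomal protein genes 71 were above 0 in LL against WW, with a median of 0.32, and 0 passed the test. Mrpl54 had the smallest p, with a difference of 1.04 (SE 0.26, adjusted p = 0.0927). Of 22 translation factors and other TOP mRNAs 19 were above 0, with a median of 0.25, and 0 passed. Eif4a2, an RNA helicase of initiation, had 3.91 and 3.98 in LL, 4.61 and 4.01 in WL, 4.56 and 4.80 in LW and 4.86 and 4.68 in WW, a difference of -0.82 (SE 0.23, adjusted p = 0.112). In LW against WW the medians of assembly genes, mitochondrial ribosomal proteins and TOP mRNAs were -0.03, -0.02 and 0.02.

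Regulators of ribosome production were read from their own list, of which 0 of 19 genes passed the test in LL against WW (median 0.03, 11 above 0). Mxi1, an antagonist of Myc, had the smallest p of the list, with 1.20 and 0.59 in LL, 1.98 and 1.26 in WL, 2.01 and 1.95 in LW and 2.0 and 2.14 in WW, a difference of -1.18 (SE 0.30, adjusted p = 0.0936), and both LL mice lay below all LW and WW mice. Myc, which drives transcription of ribosomal and assembly genes, had -0.34 and 0.53 in LL, -2.23 and 1.51 in WL, -2.72 and -2.39 in LW and -2.36 and -2.28 in WW, a difference of 2.42 (SE 1.1, adjusted p = 0.229). As for Rpl7l1, WL mouse 2 was the highest and the LL mice came next. Larp1, which binds TOP mRNAs, had 3.68 and 3.81 in LL, 3.44 and 4.33 in WL, 3.32 and 3.35 in LW and 3.29 and 3.26 in WW, a difference of 0.47 (SE 0.29, adjusted p = 0.336). Mtor had -0.61 and -0.81 in LL, -1.17 and -0.47 in WL, -0.89 and -1.06 in LW and -1.09 and -1.29 in WW. Of 12 genes of ribosome rescue and stalling 0 passed (median 0.16). Eif2ak4, a kinase that senses stalled ribosomes, had the smallest p at -0.43 (SE 0.14, adjusted p = 0.141).

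Of 16 p53 targets 0 passed the test in LL against WW (median 0.31, 12 above 0). Gtse1 had the smallest p, with a difference of 1.18 (SE 0.31, adjusted p = 0.102), and Cdkn1a, the cell cycle inhibitor, had 4.17 and 4.52 in LL, 2.64 and 4.13 in WL, 2.55 and 2.46 in LW and 2.85 and 2.60 in WW, a difference of 1.62 (SE 0.46, adjusted p = 0.116). Of 28 cell division genes 17 were called higher in LL than in WW and 0 lower, with a median of 1.27, against 3.13% of all genes called. Cdk1, the mitotic kinase, had a difference of 2.58 (SE 0.44, adjusted p = 0.0409). The count of 17 became 25 without either WL mouse, 3 without either LW mouse, 1 without LL mouse 2 and 0 without LL mouse 1, WW mouse 1 or WW mouse 2, and it was 6 with a replicate block. All genes called numbered 8282 without either WL mouse, 246 without either LW mouse, 202 without LL mouse 2, 4 without LL mouse 1 or WW mouse 1, 20 without WW mouse 2 and 447 with the block. The summed level of this list was 73.0 to 76.5 in LL, 61.0 and 87.4 in the WL mice, 33.2 to 36.8 in LW and 35.8 in both WW mice. It was above WW in all 4 LL and WL mice, WL mouse 1 included, in which the ribosomal protein genes lay near WW. Its part in their values was not tested.

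Lists of lymphocyte and alveolar type 2 markers had lower sums in LL and in WL mouse 2. The summed level of 12 T cell markers was 15.8 and 16.7 in LL, 42.8 and 20.4 in WL, 40.8 and 48.9 in LW, and 41.4 and 47.0 in WW, with 3 of 12 called lower in LL than in WW. For 9 B cell markers the sums were 7.51 and 7.03 in LL, 33.0 and 8.07 in WL, 29.1 and 47.6 in LW, and 27.0 and 33.4 in WW, with 0 called. For 10 NK cell markers they were 3.13 and 3.20 in LL, 15.3 and 5.44 in WL, 13.5 and 20.0 in LW, and 16.3 and 16.2 in WW, with 3 called lower. Of 12 alveolar type 2 markers 1 was called lower, with sums of 684 and 807 in LL, 1630 and 638 in WL, 1808 and 1607 in LW and 1777 and 1896 in WW. Without either WL mouse the counts called lower were 10 of 12 T cell, 9 of 10 NK cell and 10 of 12 type 2 markers, and all 3 were 0 without any single LL or WW mouse. Without either LW mouse they were 0, 1 and 1. With a replicate block 1 gene of each of these 3 lists was called. In these 4 lists every marker on the array passed the filter, and WL mouse 2 was close to LL.

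Other marker lists also differed between LL and WW. Of 9 platelet markers 8 were called lower in LL than in WW, and the sums were 1.26 and 1.22 in LL, 13.4 and 21.5 in WL, 17.1 and 10.2 in LW and 16.2 and 23.5 in WW. Of 13 markers of monocytes and recruited macrophages 8 were called lower, while the sum was 290 and 358 in LL, 178 and 285 in WL, 163 and 148 in LW and 180 and 173 in WW. Of 12 alveolar macrophage markers 4 were called lower, with sums of 18.3 and 32.4 in LL, 72.6 and 32.3 in WL, 58.4 and 52.0 in LW and 51.7 and 52.1 in WW. Of 11 markers of fibroblasts and mesothelial cells 2 were called higher, with sums of 236 and 252 in LL, 147 and 208 in WL, 138 and 133 in LW and 127 and 110 in WW. The platelet list was thus low in LL alone, while WL mouse 2 lay beside LL for alveolar macrophage markers. With 1 array left out the counts ran from 0 to 9 (platelet), 1 to 10 (monocyte), 0 to 9 (alveolar macrophage) and 0 to 9 (fibroblast), at their lowest without WW mouse 1 and at their highest without either WL mouse. In these 4 lists every marker on the array passed the filter. The part of these 8 lists in the values of the ribosomal protein genes was not tested.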

How the data were processed

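Whole lung RNA of 8 chimeric mice, 2 per group, was measured on one-colour arrays. The deposited array files hold intensity values from Agilent Feature Extraction 11.5.1.1, background-subtracted and detrended within each array per the file headers, with probe positions on mm9. The deposited series table holds log2 values that differed from those computed here with an SD of at most 0.0038 on any array, with the 75th percentile at 0 and no centring per gene.

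Spots marked non-uniform were left out, with 12 probes that had no other spot, which left 56593 probes. Spots of a probe were averaged, and the log2 of the mean was set relative to the 75th percentile of its array. A probe was kept if some group had it well above background in both mice (39595 probes), and the brightest stood for each of 25830 genes. Group means were compared across all genes with limma 3.58.1 (lmFit and eBayes, R 4.3.3) on all 8 arrays, with degrees of freedom of 4 (residual) and 2.19 (prior). In each of 7 comparisons p-values were adjusted by Benjamini and Hochberg's method over all genes, and genes were called at an adjusted p under 0.05. Nothing in the labels says more of the replicates than that they are separate mice, and p-values measure the spread between these mice. An exact two-sided permutation test of 2 against 2 mice cannot go below p = 0.333. On simulated data for LL against WW, the test called 0, 0, 1 and 28 of 50 genes given log2 changes of 0.25, 0.5, 1 and 2, and 2 of 25630 genes given none. A bound for a gene at background compares the bright group's mean with the higher of the dim probe's signal and the lowest signal well above background on each array.

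Members and gene lists (8 pathway and 17 marker lists) were chosen with earlier results of these data known, and nothing here is independent support for them. Named members are, per comparison, those called or otherwise the 3 highest and 3 lowest, a fixed set of paralogs, partners, stalk and well-known proteins, those at background in a group, those of extreme spread, and those whose probes differ in sign. In each pathway list the gene of smallest p, or of the largest called change, was named. A few results that this rule would name are not reported here. The alternatives were normexp (offset 50), quantile normalisation, median centring, another percentile, other filters, averaging over probes, the deposited table, a replicate block, a trended and robust variance, a fit to the compared arrays alone, no WL arrays and each array left out. Sequences are RefSeq promoter entries on GRCm38.p6. Figures were drawn with Python 3.11.15 and matplotlib 3.10.9.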

Additional observations from a re-analysis of the deposited data

How the results depend on the processing

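Most values kept their side. Of 898 values of 47 single-gene results under alternatives, 845 kept direction and side of the threshold and 9 changed sign. The other 44 passed the threshold where the reported value did not. They count the fits without either and without both WL mice separately, although these are the same for LL against WW and LL against LW. None of the 47 results was called at the main setting, so none could lose the threshold. The count of members called stayed at 0 in each comparison under normexp, quantile normalisation, both other scalings, both other filters, the mean of probes, the deposited table and the other variance model. It became 4 (LL against WW) and 6 (LL against LW) with the compared arrays alone, and 7 and 8 without both WL arrays. Leaving out 1 array gave 0 to 7 (LL against WW), 0 to 8 (LL against LW), 0 to 34 (WL against WW and WL against LW) and 0 to 2 (LL against WL). The medians then ran from -0.018 to 0.42 (WL against WW), -0.0084 to 0.43 (WL against LW), -0.29 to 0.16 (LL against WL) and -0.28 to 0.16 (interaction). The LL minus LW median was -0.044 under quantile normalisation.

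Rpl39l changed sign in LL against WW (-1.31 to 0.48 with 1 array left out, above 0 without LL replicate 2 or WW replicate 2) and in LW against WW (-1.35 to 0.28, above 0 without WW replicate 2). Under normexp it did so in WL against WW (-0.049) and the interaction (0.063). With median centring Rps27 (0.021) and Rps15 (0.026) changed sign in WL against WW and Rps15 (0.037) in WL against LW. Rps15a in LW against WW was 0.0042 by its 10-spot probes, an alternative chosen after seeing the data. The cause was not tested.

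The labels do not pair the mice by replicate number, and over all genes tested their deviations correlated at -0.10 to 0.19 between groups. Among the 80 members, though, mouse 2 was above mouse 1 for 80 in LL, 79 in WL, 72 in LW and 71 in WW. With the replicate block 0 members were called in each comparison and the LL minus WW median was 0.13, while calls over all genes went from 808 to 447. Those calls were 400 with no filter, 6243 with the compared arrays alone, 8282 without the WL arrays and 4 to 8282 with 1 array left out (4 without LL replicate 1 or WW replicate 1). A group left with 1 mouse is assumed to vary like the others. For comparisons without WL, leaving out either WL mouse is therefore the same fit as leaving out both. With 2 mice a group, few changes of 2-fold or less were called on simulated data. The test called 1 of 50 genes given a log2 change of 1, and 28 of 50 given 2. The simulated data held fewer changed genes than the 808 called in LL against WW, so the adjusted threshold was stricter there. They also took the spread of all genes, and so give no rate of detection for the members.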
